A study of Rattus norvegicus with 96 samples.

Results

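The genes described here are 10 classical antioxidant and NRF2-dependent genes, followed in the blood of rats that had inhaled crystalline silica. They were taken as a fixed set of names and matched to the gene symbols of the array, and all 10 of the 10 were found, each by 1 probe row, among 12306 genes tested. The study hybridised blood RNA of 96 male rats, 1 array per rat, to Illumina BeadChips, on which each gene is read by beads that carry a probe. It compared rats exposed to silica with rats exposed to air and asked whether blood RNA carries a mark of exposure.

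The rats were CDF Fisher 344 males of 3 months, and the labels name no allele or other agent. Silica rats had inhaled 15 mg/m3 for 6 hours a day on 5 days and were killed 0, 1, 2, 4, 8 or 16 weeks later, with 8 rats at each time. Air rats of the same times, 4 at each, served as their controls. A further 8 rats each had inhaled 1 mg/m3 or 2 mg/m3 on the same schedule and were killed 16 hours after the last exposure, here called week 0, each dose with 4 air rats of its own. In every group the tissue was whole blood, from which globin RNA had been depleted. Blood RNA is a mixture of white cells, reticulocytes and platelets, and in such a mixture fewer cells of a type and less RNA per cell cannot be told apart.

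NRF2 (gene Nfe2l2) is a transcription factor that is held in the cytosol by KEAP1 and degraded there. Oxidants and electrophiles modify KEAP1, after which NRF2 enters the nucleus, pairs with small MAF proteins and binds antioxidant response elements in the promoters of its targets. Among these targets are the quinone reductase Nqo1, the haem oxygenase Hmox1, the glutathione synthesis subunits Gclc and Gclm, and the thioredoxin reductase Txnrd1. The other genes of the set remove oxidants: Sod2 turns superoxide into hydrogen peroxide in mitochondria, while Cat, Prdx1, Gpx1 and Gpx3 break down peroxides. Inhaled silica is known for the reactive oxygen it brings about in the lung, both at the particle surface and through phagocytes.

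The sequences before the start of 4 of the genes are shown because 3 of these genes carry the week 16 result given below. The fourth, Prdx1, holds the response element core, as do Txnrd1, Gclm and Sod2. They are RefSeq sequences of the rat build GRCr8, 250 bases each, read 5′ to 3′ on the gene's strand and ending just before the start of transcription, with matches to the core TGACNNNGC, sought on both strands, in capitals.
Nqo1 (chr19:52220268-52220517, minus strand): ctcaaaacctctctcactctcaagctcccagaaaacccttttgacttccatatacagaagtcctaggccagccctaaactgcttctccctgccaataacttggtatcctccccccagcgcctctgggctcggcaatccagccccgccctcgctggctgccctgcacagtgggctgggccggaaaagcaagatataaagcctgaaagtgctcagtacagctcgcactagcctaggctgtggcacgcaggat
Txnrd1, one of its 2 starts (chr7:22755905-22756154, minus strand): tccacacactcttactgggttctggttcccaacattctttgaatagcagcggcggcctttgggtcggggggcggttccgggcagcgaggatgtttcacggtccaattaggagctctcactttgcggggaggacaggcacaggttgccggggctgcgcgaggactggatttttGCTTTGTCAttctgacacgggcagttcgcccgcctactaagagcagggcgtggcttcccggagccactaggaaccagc
Gpx3 (chr10:39529085-39529334, plus strand): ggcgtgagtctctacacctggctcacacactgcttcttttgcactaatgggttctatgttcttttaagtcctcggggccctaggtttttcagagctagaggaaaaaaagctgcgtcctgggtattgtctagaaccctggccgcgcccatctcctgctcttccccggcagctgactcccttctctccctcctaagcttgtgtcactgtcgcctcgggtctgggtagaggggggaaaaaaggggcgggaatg
Prdx1 (chr5:135383656-135383905, plus strand): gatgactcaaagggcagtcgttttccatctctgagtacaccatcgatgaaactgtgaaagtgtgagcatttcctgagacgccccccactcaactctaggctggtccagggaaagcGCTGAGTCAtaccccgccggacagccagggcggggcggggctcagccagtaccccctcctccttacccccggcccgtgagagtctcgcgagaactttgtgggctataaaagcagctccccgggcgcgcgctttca
A window of 300 bases, 250 before and 50 after the start, was held for 9 of the 10 genes (all except Hmox1). The core was found in the windows of 4 of them: Gclm at position -172, Txnrd1 at -78, Prdx1 at -135 and Sod2 at -35 relative to the start, each on the opposite strand. The window of the other Txnrd1 start held no match. Of all 33469 promoter windows of the same length 12.1% hold it, so a match is a description and no site. In Prdx1 the match overlaps the element TGANTCA, the AP-1 core, which 7.33% of all windows hold. No match was found in the windows of Nqo1 and Gpx3, which says only that these letters do not lie within that distance.

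The levels below are background-corrected, quantile-normalized log2 intensities, and a difference of 1 is a doubling. All 10 genes were detected on 96 of 96 arrays. They spanned the range of the array, from Txnrd1 at the 54.9th percentile of mean level among the genes tested to Gpx1 at the 99.5th. The standard error between the beads of a gene on an array had a median of 0.029 (Nqo1) to 0.056 (Txnrd1) on the log2 scale, while rats of one group differed with an SD of 0.118 (Prdx1) to 0.310 (Gpx3). Arrays detected between 7642 and 9970 of 21792 rows. The labels name no chip. Columns were therefore taken in consecutive runs of 12, and after removal of group means 2 arrays of 1 run correlated by 0.139 on average, against -0.029 for arrays of different runs. The first 4 runs hold 1 rat of each of the 12 groups of the 15 mg/m3 set, whereas the last 4 hold the other silica rats and all low-dose rats. Silica over air can therefore be read within the first 4 runs, and those values are given beside the pooled ones. Air rat 4 of the 2 mg/m3 set stood apart: it had the lowest Gpx3 (7.07) and the lowest Sod2 (8.77) of all rats, and its summed level of 6 platelet markers, 19682, was the lowest of its group.

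In blood taken 16 weeks after exposure, 2 of the 10 genes were higher in silica rats and 1 was lower. Txnrd1, which keeps thioredoxin reduced, was higher than in air rats by 0.59 ± 0.15 on the log2 scale (SE), a fold of 1.51. This value for the dimmest member moved to 0.09 with limma's stock background correction and to 0.33 in the authors' deposited values, and passed in both. Nqo1, which reduces quinones to less reactive hydroquinones, was higher by 0.45 ± 0.11, a fold of 1.37. Gpx3, the secreted glutathione peroxidase of plasma, was lower, at a fold of 0.635 and a log2 change of -0.65 ± 0.18. Adjusted p-values from limma, with Benjamini-Hochberg correction over all 12306 genes, were 0.00714, 0.00907 and 0.0229. Of all genes tested, 4.78% were called in this comparison, 3.08% higher and 1.7% lower. Among the 16 group means, from the highest down, Txnrd1 ranked 16 in the air rats of week 16 and 3 in the silica rats. Gpx3 ranked 1 in these air rats and 9 in the silica rats. Nqo1 ranked 9 in the air rats and 1 in the silica rats.

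The 8 silica rats had Nqo1 levels between 8.51 and 9.42 with a median of 8.81, against 8.57, 8.45, 8.46 and 8.19 in the 4 air rats. All 8 silica rats lay above the air mean, and the lowest of them lay below the highest air rat. Txnrd1 ranged between 6.06 and 7.39 in silica rats, with a median of 6.35, against 6.17, 5.86, 5.91 and 5.61 in air rats. Again 8 of 8 silica rats exceeded the air mean with a small overlap, and silica rat 6 was the highest for both genes. Gpx3 lay between 8.08 and 8.97 in silica rats, with a median of 8.57, against 9.08, 9.26, 9.19 and 9.29 in air rats, so the groups did not overlap. Of the 80 silica-air comparisons of members, 2 had no overlap, this one and Cat at week 1. The share of all genes without overlap was not computed.

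**Figure D1:**
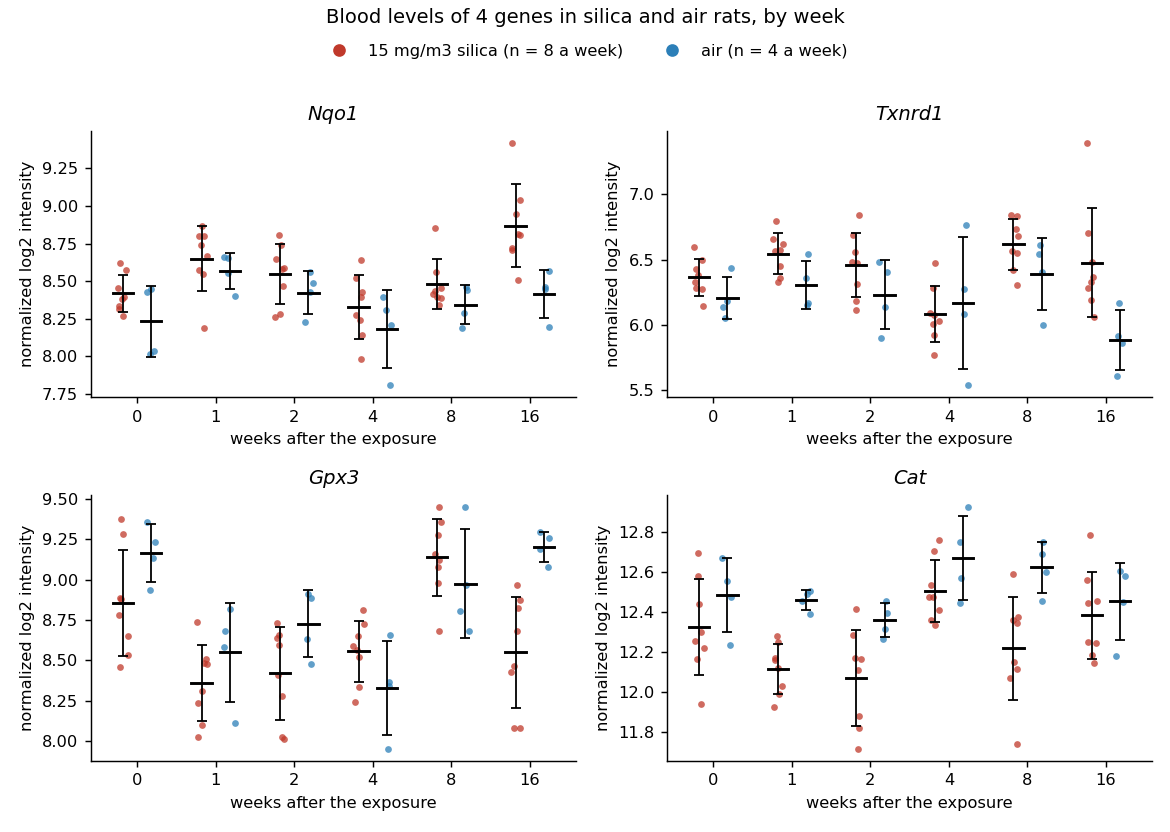
Normalized log2 intensity of Nqo1, Txnrd1, Gpx3 and Cat in each rat (points), with silica rats at 15 mg/m3 (8 a week) left of air rats (4 a week), plotted by weeks after the exposure; bars show the mean and SD. At week 16 all 8 silica rats lie below the 4 air rats for Gpx3 and above the air mean for Nqo1 and Txnrd1, while Cat lies lower in silica rats without overlap at week 1. The share of all genes without such overlap was not computed.

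Within each of the first 4 column runs, the week 16 silica rat stood above the air rat for Nqo1 (by 0.27 to 0.85) and for Txnrd1 (by 0.37 to 1.23), and below it for Gpx3 (-1.21 to -0.26). The calls rest on the shared estimate of spread over 16 groups: with only the 12 week 16 arrays in the limma fit, the adjusted p-values were 0.128 for Nqo1, 0.161 for Txnrd1 and 0.0773 for Gpx3. Without air rat 4, the lowest air rat for Nqo1 and Txnrd1, they were 0.101, 0.0874 and 0.0952. Gpx3 also did not pass without air rat 2, air rat 3 or silica rat 8 (adjusted p of 0.0598, 0.0628 and 0.0618). Under median scaling none of the 3 passed, with log2 differences of 0.75 for Nqo1, 0.72 for Txnrd1 and -0.35 for Gpx3.

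The other members did not pass at week 16. Hmox1, which degrades haem, had a log2 difference of 0.33 (95% interval 0.03 to 0.63, adjusted p = 0.21) and Gpx1, the cytosolic glutathione peroxidase, of 0.19 (0.03 to 0.35, adjusted p = 0.16). Differences of Gclc, the catalytic subunit of glutamate-cysteine ligase, Gclm, its modifier subunit, Sod2, Cat and Prdx1 lay between -0.07 and 0.08, with limma's adjusted p-values of 0.637 to 0.955.

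Of the cell marker lists, only that of neutrophils held genes that passed at week 16. All 14 neutrophil markers tested were above 0 (median log2 difference 0.62). Of these, 11 passed as higher, where 3.08% of all genes did. Their summed level was 17692 to 28199 in silica rats, against 11806 to 16537 in air rats. All 6 platelet markers were below 0 (median -0.18) and none passed, with summed levels of 38756 to 52657 in silica rats, against 50636 to 51835 in air rats. Listed markers that were not tested for want of signal or a row included Ltf, Np4 and Lcn2 of neutrophils and Itga2b, Gp6, Treml1 and Tubb1 of platelets. Of 12 erythroid markers 5 were above 0 and none passed, and summed levels were 70910 to 75756 in silica rats, against 70026 to 74994 in air rats. Of 8 monocyte markers 4 were above 0 and none passed, with summed levels of 1632 to 2814 in silica rats, against 1670 to 2342 in air rats. Of 7 T cell markers 2 were above 0 (median -0.06), of 4 B cell markers 1 was (median -0.17), and none passed. The part of these cells in the differences of Nqo1, Txnrd1 and Gpx3 was not tested.

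At weeks 0, 1, 2, 4 and 8 none of the 10 genes passed in limma, where 0.0163%, 0.39%, 0.0325%, 0.122% and 0.268% of all genes did. In week 8, 0.26% of all genes were called higher and 0.00813% lower. Of all genes, 9.08%, 11.2%, 9.09%, 9.39% and 9.24% had an unadjusted p under 0.05 in these weeks. Members with such a p numbered 1, 1, 2, 1 and 1. Cat, the peroxisomal and erythrocyte catalase, supplied 3 of these. Its level at week 1 was 11.93 to 12.28 in silica rats (median 12.14), against 12.39, 12.46, 12.49 and 12.51 in air rats. The groups did not overlap, a trait whose share over all genes was not computed. The log2 difference of -0.35 ± 0.12 had an adjusted p of 0.217. At week 8 Cat was 11.74 to 12.59 in silica rats (median 12.25), against 12.46, 12.60, 12.69 and 12.75 in air rats, with all 8 silica rats below the air mean and a difference of -0.41 ± 0.12 (adjusted p = 0.115).

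At week 2, Cat differed by -0.29 (adjusted p = 0.435) and Gpx1 by 0.19 (adjusted p = 0.444). Gpx1 at week 0 differed by 0.16 (adjusted p = 0.545) and Prdx1 at week 4 by -0.16 (adjusted p = 0.472). These 4 values fall short in limma once all genes are accounted for. Hmox1 had no common sign, with differences above 0 in 3 of the 6 weeks and below 0 in the other 3, between -0.27 at week 8 and 0.33 at week 16. Gpx3 was below its air rats in 4 of the 6 weeks and above them at weeks 4 and 8 (0.23 and 0.16).

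**Figure D2:**
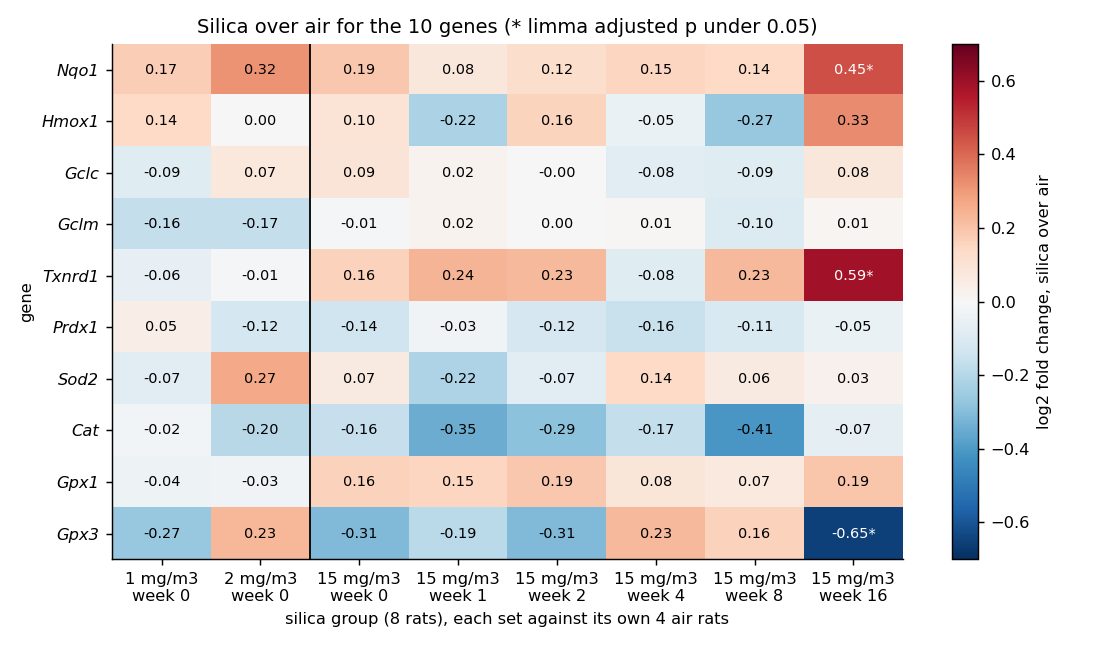
Log2 fold change, silica over air, of the 10 genes (rows) in the 8 comparisons of 8 silica with 4 air rats (columns), red for higher and blue for lower, with the value in each cell and a star where limma's adjusted p is under 0.05. The 3 starred cells are all at week 16 after 15 mg/m3, and the Nqo1 row is above 0 and the Cat row below 0 in all 8 columns.

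No change over time was shown for these differences. The limma F test of whether silica over air varied over the 6 weeks called 0 members (0.146% of all genes). In it, 10.7% of all genes had an unadjusted p under 0.05, and 2 members did: Gpx3 (adjusted p = 0.299) and Hmox1 (adjusted p = 0.464). The difference at week 16 minus that at week 0 was 0.43 for Txnrd1 (adjusted p = 0.788), 0.27 for Nqo1 (adjusted p = 0.835) and -0.35 for Gpx3 (adjusted p = 0.883) in limma. There 1 member had an unadjusted p under 0.05, as did 6.2% of all genes, and no gene of any kind was called. So the starred values at week 16 are not shown to exceed those of the earlier weeks.

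Averaged over the 6 weeks, 48 silica rats against 24 air rats, 5 of the 10 genes passed, 3 higher and 2 lower, where 11.4% of all genes did (6.31% higher and 5.08% lower). Txnrd1 was higher by 0.23 ± 0.06 (adjusted p = 0.00624), Nqo1 by 0.19 ± 0.05 (adjusted p = 0.0037) and Gpx1 by 0.14 ± 0.03 (adjusted p = 0.00157). The Txnrd1 value ranged between 0.04 with the stock background correction and 0.30 under median scaling, and passed in limma under both. Cat was lower by a log2 change of -0.24 ± 0.05 (adjusted p = 0.00034), and Prdx1, a thioredoxin-dependent peroxidase, by -0.10 ± 0.03 (adjusted p = 0.0208). Under median scaling Prdx1 had the opposite sign (0.08, adjusted p = 0.486) and Cat did not pass (-0.05, adjusted p = 0.676). Counting each rat against the air mean of its week, Nqo1 was higher in 42 of 48 silica rats, Gpx1 in 39 and Txnrd1 in 38, and Cat was lower in 40 and Prdx1 in 39. Gpx3 at -0.18 ± 0.08 did not pass (adjusted p = 0.109), and Hmox1, Gclc, Gclm and Sod2 lay between -0.01 and 0.01, with the widest 95% interval, that of Hmox1, reaching -0.11 and 0.13.

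The 5 genes differed in how far they kept these values within column runs. Nqo1 was higher in silica rats in all of the first 4 runs, by 0.25, 0.26, 0.40 and 0.30, and with the run as a block it was higher by 0.30 (adjusted p = 2.05e-07). Txnrd1 was higher by 0.31, 0.27, 0.26 and 0.19 in these runs and by 0.26 with the block (adjusted p = 0.00318). Cat had run values of -0.20, -0.25, -0.01 and -0.08 and, with the block, -0.13 (adjusted p = 0.121). Gpx1, at 0.04 (adjusted p = 0.455), and Prdx1, at -0.05 (adjusted p = 0.462), also did not pass with the block. Silica rats in the first 4 runs, in the last 4 runs and air rats averaged 14.27, 14.47 and 14.23 for Gpx1, so the higher silica level lay mainly in runs that hold no air rat of that set. The same 3 means were 12.38, 12.17 and 12.51 for Cat and 8.66, 8.43 and 8.36 for Nqo1.

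**Figure D3:**
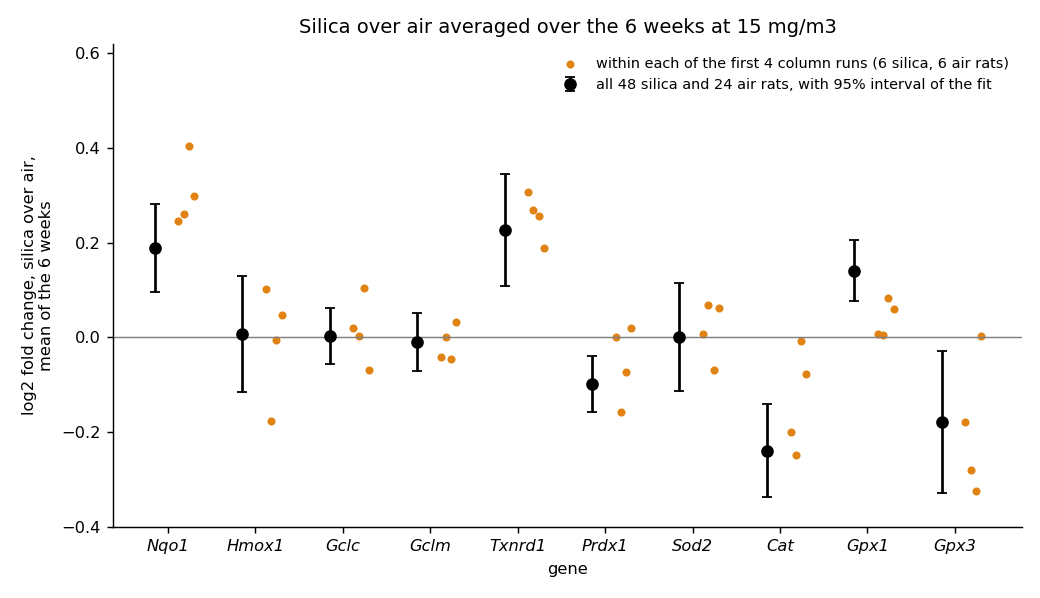
Log2 fold change, silica over air, averaged over the 6 weeks at 15 mg/m3 for the 10 genes, as the estimate of the fit with its 95% interval over 48 silica and 24 air rats (black) and within each of the first 4 column runs (orange, 6 silica and 6 air rats each). The 4 run values of Nqo1 (0.25 to 0.40) lie above its pooled value and those of Txnrd1 (0.19 to 0.31) on both sides of it, while those of Gpx1 (0.01 to 0.08) lie below.

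Week 16 carried part of the averages of Nqo1 and Txnrd1. Without that week, they were 0.14 (adjusted p = 0.1001) and 0.15 (adjusted p = 0.146) and did not pass, while Cat, Gpx1 and Prdx1 did.

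At the lower doses no member passed and no gene of any kind did (0%). Members with an unadjusted p under 0.05 numbered 1 at 1 mg/m3 and 2 at 2 mg/m3, where 2.54% and 4.71% of all genes had one. Nqo1 at 2 mg/m3 was 8.20 to 8.65 in silica rats (median 8.49), against 7.91, 8.14, 8.20 and 8.36 in air rats, with 8 of 8 silica rats above the air mean and a log2 difference of 0.32 ± 0.11 (unadjusted p = 0.0072, adjusted p = 0.908). Gclm lay below its air rats by a similar amount at 1 mg/m3 (-0.16, adjusted p = 1.00) and 2 mg/m3 (-0.17, adjusted p = 1.00). Across 1, 2 and 15 mg/m3 at week 0 the Nqo1 differences were 0.17, 0.32 and 0.19. The F test over the doses called 0 members, with 0 at an unadjusted p under 0.05, where 2.84% of all genes had one. The Sod2 and Gpx3 differences at 2 mg/m3 (0.27 and 0.23) changed sign without air rat 4, the rat named above, with values of -0.02 and -0.14.

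Levels also moved in rats that had breathed air. Over the 6 weeks, 3 members passed the F test in air rats, where 31% of all genes did: Gpx3 (adjusted p = 0.00191), Gclm (adjusted p = 0.00951) and Gclc (adjusted p = 0.0445). Gpx3 averaged 9.17, 8.55, 8.73, 8.33, 8.98 and 9.20 in air rats at weeks 0, 1, 2, 4, 8 and 16, with its lowest level at week 4. The median summed platelet level in the same air groups was 53511, 52778, 49849, 39625, 49235 and 51366, also lowest at week 4. Gclm averaged 13.88, 13.97, 13.99, 14.18, 14.14 and 14.17 in these air groups, and the mean log2 level of the erythroid markers was 10.52, 10.47, 10.62, 10.80, 10.74 and 10.85. The part of these cells in these courses was not tested. In silica rats, 8 of the 10 genes (all except Hmox1 and Gpx1) varied over the 6 weeks by the F test, where 45.9% of all genes did.

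Between the air rats of the 3 exposure sets at week 0, 2 members passed, where 11.7% of all genes did. Gpx3 averaged 8.57, 8.18 and 9.17 in the air rats of the 1, 2 and 15 mg/m3 sets (limma F test, adjusted p = 0.00204). Its medians were 8.62, 8.31 and 9.18, and the 2 mg/m3 set includes air rat 4 at 7.07. Gpx1 averaged 14.53, 14.47 and 14.20 (adjusted p = 0.0171). Air rats of the highest dose lie in the first 4 column runs and those of the low doses in the last 4, and only the 15 mg/m3 silica rats link both. With the run as a fixed block in limma, Gpx3 still passed (adjusted p = 0.00303), Gpx1 did not (adjusted p = 0.452) and Gclc did (adjusted p = 0.0378, against 0.0677 without the block).

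Ordered by mean level over the 16 groups, the members formed gradual series. For 9 genes, each of the 15 steps between neighbouring groups was smaller than the SD between rats of one group. In Nqo1 the silica rats of week 16 stood highest (8.87), 0.22 above the next group, the silica rats of week 1, which exceeded the rat SD of 0.19; its lowest group was air rats set against 1 mg/m3 (7.96). The highest mean of Txnrd1 was in silica rats of week 8 (6.62) and its lowest in air rats of week 16 (5.89). Gpx3 was highest in the air rats of week 16 (9.20) and lowest in those of the 2 mg/m3 set (8.18). That lowest mean includes air rat 4 at 7.07, and the median of its group was 8.31. Cat was highest in air rats of week 4 (12.67) and lowest in silica rats of week 2 (12.07). Sod2 ranged between 10.04 in silica rats of week 0 and 9.52 in air rats of week 4, Hmox1 between 7.15 in air rats of week 8 and 6.52 in those of the 1 mg/m3 set, and Prdx1 between 10.96 in air rats of week 2 and 10.59 in those of the 1 mg/m3 set. Gpx1 and Gclc were highest in the 1 mg/m3 set's air rats (14.53 and 7.94) and lowest in air rats of week 16 (14.16 and 7.53), and Gclm lay between 14.19 in silica rats of week 4 and 13.87 in those of week 0.

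Of 32 other genes listed for the NRF2 pathway, 27 were tested, and 1 passed as higher and 1 as lower at week 16, where 4.78% of all genes passed, with a list median of 0.01 against 0.00 over all genes. Osgin1, an oxidative stress-induced growth inhibitor, was higher by 0.69 ± 0.14 (adjusted p = 0.00132), and Cbr1, a carbonyl reductase, was lower by a log2 change of -0.24 ± 0.08 (adjusted p = 0.0457), which did not pass with the column run as a block (adjusted p = 0.0507). Osgin1 differed by 0.58 at week 0 (adjusted p = 0.151) and 0.55 at week 8 (adjusted p = 0.0617), and with the block it passed at both, at 0.65 (adjusted p = 0.0211) and 0.62 (adjusted p = 0.0169). At week 1 only Ugt1a6, a glucuronosyltransferase, passed among the 27, at -0.37 ± 0.09 (adjusted p = 0.0421), where 0.39% of all genes did. Averaged over the 6 weeks, 4 of the 27 were higher and 2 lower, where 11.4% of all genes passed. Osgin1 stood at 0.38 ± 0.06 (adjusted p = 1.46e-06), and 0.46 with the run as a block (adjusted p = 2.94e-07). The NADPH-producing enzymes Pgd (0.20) and Idh1 (0.19), the biliverdin reductase Blvrb (0.09), the ferritin light chain Ftl1 (-0.10) and the autophagy receptor Sqstm1 (-0.13) passed in limma, and with the block none of these 5 did (adjusted p-values of 0.127 to 0.744).

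Of 27 further antioxidant genes 22 were tested, and 1 passed at week 16, where 4.78% of all genes did. It was Glrx, a glutaredoxin, at 0.37 ± 0.09 (limma adjusted p = 0.00476), and the list median was -0.06. Over the 6 weeks 1 of the 22 passed as higher and 2 as lower, where 11.4% of all genes passed. Glrx was higher by 0.21 ± 0.04 in limma (adjusted p = 1.36e-05), and by 0.19 with the block (adjusted p = 0.000595). Prdx2, the main peroxiredoxin of red cells, at -0.13 (adjusted p = 0.00499), and Msrb2, a methionine sulfoxide reductase, at -0.11 (adjusted p = 0.0288), were lower, and neither passed with the block. Among the oxidant producers, 11 of 15 were tested. None passed in limma at week 16, where the myeloperoxidase Mpo differed by 0.17 (adjusted p = 0.125). Nos2, the inducible nitric oxide synthase, passed in limma at week 8 with 1.26 ± 0.31 (adjusted p = 0.0358), where 0.268% of all genes did. With the block Nos2 did not pass (1.17, adjusted p = 0.0756). Over the 6 weeks all 11 lay above 0, and 3 passed as higher, where 6.31% of all genes did. Those that passed in limma included the phagocyte NADPH oxidase subunits Ncf4 (0.22, adjusted p = 0.00429) and Cyba (0.12, adjusted p = 0.03). Both also passed with the block (Ncf4 at 0.25, adjusted p = 0.00368, and Cyba at 0.15, adjusted p = 0.0115). Over the same weeks 12 of 14 neutrophil markers passed as higher (median 0.40), where 6.31% of all genes did. Of the erythroid markers 3 of 12 passed as lower (median -0.09), where 5.08% of all genes did. None of the 6 platelet markers passed. The part of these cells in these differences was not tested. Of the 3 erythroid markers, Trim10 passed with the block (adjusted p = 0.0316), and Epb42 (adjusted p = 0.0875) and Kel (adjusted p = 0.0586) did not.

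Rats of the same group differed in members along with cell markers. With each value taken as the deviation from its group mean over 96 rats, Sod2 followed the mean platelet marker level (Pearson's r = 0.826, Spearman's rho = 0.740), and so did Gpx3 (r = 0.786, rho = 0.724). Without the 2 rats farthest from the median platelet level r was 0.756 and 0.700, so the relation did not rest on the low-dose air rat named above alone. Gclm followed the erythroid markers (r = 0.596, rho = 0.590, r = 0.575 without the 2 farthest rats). Txnrd1 (r = 0.539, rho = 0.465) and Nqo1 (r = 0.505, rho = 0.425) followed the neutrophil markers, with r of 0.406 and 0.403 without the 2 farthest rats. In these 5 relations the permutation p, over 100000 resamples and for both measures, was at most 0.00013, and the adjusted p over the 30 relations computed was at most 0.00065. Smaller relations that passed by both measures were Gpx3 (0.408), Cat (0.347) and Sod2 (0.332) with the erythroid markers and Prdx1 (-0.366) with the neutrophil markers.

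**Figure D4:**
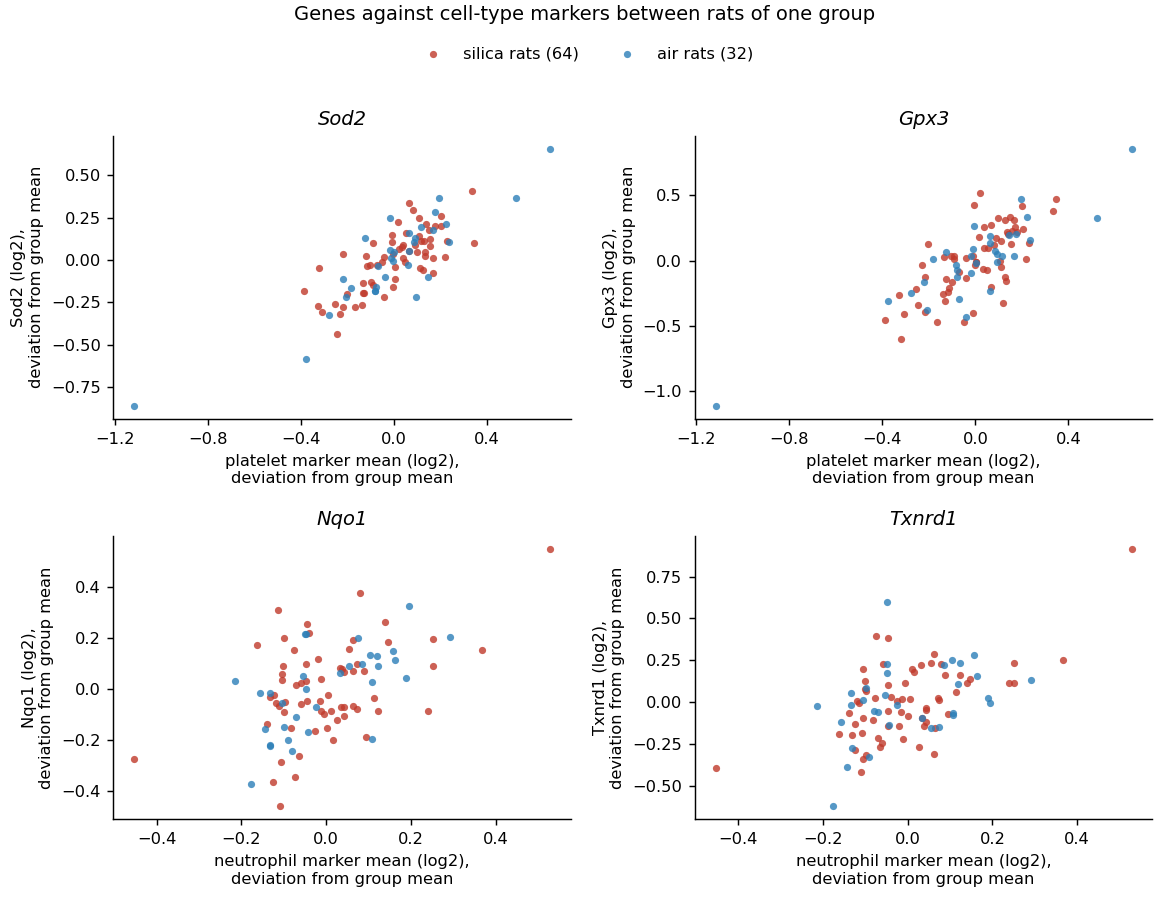
Deviation of Sod2, Gpx3, Nqo1 and Txnrd1 from the mean of the rat's own group (vertical, log2) against that of the mean of the platelet (upper) or neutrophil (lower) markers (horizontal, log2), for 64 silica rats (red) and 32 air rats (blue). Points rise from lower left to upper right in each panel, with r of 0.826 for Sod2, 0.786 for Gpx3, 0.505 for Nqo1 and 0.539 for Txnrd1, and 1 air rat lies far to the lower left in the platelet panels.

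Hmox1 followed none of these 3 lists (r between -0.07 and -0.02). The monocyte, T cell and B cell markers were added after the data were seen, as a further family of 30 relations. Hmox1 followed the monocyte markers (r = 0.687, rho = 0.654, r = 0.656 without the 2 farthest rats), and so did Nqo1 (r = 0.487, rho = 0.459) and Txnrd1 (r = 0.410, rho = 0.295), with permutation p-values adjusted over this family of at most 0.0256. Sod2 (-0.542), Gclm (-0.541) and Gpx3 (-0.517) ran against the T cell markers. Nqo1 (-0.432), Gclm (-0.343), Cat (-0.322) and Sod2 (-0.277) ran against the B cell markers and passed by both measures. With the column run removed along with the group means, r was 0.736 for Hmox1 with monocytes, 0.837 for Sod2 and 0.786 for Gpx3 with platelets, 0.612 for Gclm with erythroid markers, and 0.579 for Nqo1 and 0.479 for Txnrd1 with neutrophils. All of these passed by both measures over 60 relations. Others that then passed by both measures included Cat with erythroid markers (0.574) and Gclc with T cells (0.506). Against B cells, Cat (-0.310) and Gpx1 (-0.380) passed by both measures, and Nqo1 (-0.293), Gclm (-0.262) and Sod2 (-0.146) did not. Among the 45 pairs of members, 3 passed by both measures in the permutation test. Sod2 rose with Gpx3 (r = 0.667, rho = 0.592), Nqo1 with Txnrd1 (r = 0.560, rho = 0.488), and Prdx1 fell as Gpx1 rose (r = -0.332, rho = -0.359), with adjusted p-values of 0.000225, 0.000225 and 0.0469 for Pearson's r. With the column run removed as well, the first pair had r of 0.690 and the next 0.510, and both passed, while Prdx1 with Gpx1 did not (r = -0.245, adjusted p = 0.1003 by permutation). Other pairs passed by both measures only with the run removed: Gclm with Cat (r = 0.426), Gclc with Gpx3 (-0.390) and Gclc with Sod2 (-0.365).

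By likeness over the 96 arrays, a description over arrays that share groups and runs, the genes closest to each member were the following. Nqo1 was most like Lbp, the lipopolysaccharide-binding protein (r = 0.862), then Arhgap24 (0.824) and Bmx (0.813). Txnrd1 was most like Sirpa (0.726), Prr29 (0.700) and the myeloid kinase Fgr (0.700). Gpx3 was most like Gas2l1 (0.916), the platelet lipoxygenase Alox12 (0.869) and Sap30l (0.865). Sod2 was closest to LOC497748 (0.890), Alg6 (0.863) and Ppif (0.833), Gclm to Cmas (0.835), Hipk1 (0.833) and Asns (0.826), and Cat to Knop1 (0.760), Dclre1b (0.724) and Gnpnat1 (0.716). Gpx1 was closest to LOC363377 (0.792), Rps14 (0.742) and Arf5 (0.697), and Prdx1 to Rpl31 (0.760), Actr10 (0.721) and Atp5po (0.676). Gclc was closest to Fam8a1 (0.728), Prkd2 (0.721) and Mthfd1 (0.719), and Hmox1 to Clec4a3 (0.704), Cxcl16 (0.689) and Mal (0.664). After removal of group means these correlations ranged between 0.482 (Gclc with Prkd2) and 0.937 (Gpx3 with Gas2l1). For Nqo1 with Lbp the value was then 0.772.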

How the data were processed

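RNA from the blood of 96 rats, depleted of globin RNA per the labels' protocols, was measured on Illumina rat BeadChips. Per the file headers, the deposited table holds for each array a probe intensity, a detection p-value, the standard error of that intensity over beads and the number of beads, and the submitters' processing notes name BeadStudio. A second deposited table holds normalized log2 values by the authors, for which the notes name lumi and limma without versions; its array medians lie between 6.58 and 6.62 and it follows the log2 intensity of its own array with a correlation of at least 0.992, its transform is not known, and it served as an alternative. No genome build is given in the sources used here.

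The software was R 4.3.3 with limma 3.58.1. Intensities were background-corrected by normexp with an offset of 16, with parameters from detection p-values, quantile normalized and taken to log2. A group of 626 rows with detection p-values off the common grid was left out of the parameter estimate, a change made after the data were seen; no member is among them. A row stayed in where 4 or more arrays had a detection p below 0.05 (12368 of 21792 did), and of several rows of a gene the brightest was used, which gave 12306 genes. Gene symbols were those of RefSeq for 16866 rows matched by Entrez ID and 104 matched by symbol, and the file's own for the other 4822.

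A limma model with a mean for each of 16 groups was fitted to all arrays (80 residual degrees of freedom), with contrasts of silica minus air for each dose and week, their mean over the 6 weeks, and F tests, and Benjamini-Hochberg adjustment over all genes, called at an adjusted p under 0.05. Named genes were all 10 members, from each list those that passed in a comparison (at most 6, and otherwise up to 2 of lowest p), and the 3 genes most like each member. Of list genes of lowest p that did not pass, values are given for week 16 and otherwise left out, and some list genes are not reported here. Members and lists were chosen with earlier results of these data known. Marker and member relations used permutation within groups. Same-numbered silica and air rats did not deviate together (correlations of -0.317 to 0.266), so rats were not paired. Within groups arrays correlated by at least 0.977 and 0 per-sample columns were unused. The precision is limited by the number of arrays, above all 4 air rats a comparison. The fit was tested on simulated data.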

Additional observations from a re-analysis of the deposited data

Results flagged for a closer look

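Chance sets apart a rat in about 1 of 20 groups (5%), and 4 of the 160 combinations of a member and a group were set apart by a gap to the nearest rat that was large for the range of the group. Nqo1 stood at 8.29 in air rat 1 of the 1 mg/m3 set, with the next rat at 7.89. It stood at 8.19 in silica rat 7 of week 1, with the next rat at 8.55, and at 8.86 in silica rat 6 of week 8. Prdx1 stood at 11.08 in air rat 4 of week 2.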

How the results depend on the processing

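Fold changes of called results changed sign under 1 of 101 alternatives tried on them: Prdx1 over the 6 weeks, with 0.0821 under median scaling, which moved the median of all genes by up to 0.125 (at 1 mg/m3) and by 0.0631 for the 6 weeks. Uncalled values changed sign in 64 of 1089. Where a replicate block is named below, the replicate number was added to the fit of only the groups compared. Counts of members called at week 16 (3 as reported) were 0 under median scaling, 0 with only the groups compared in the fit, 0 with the replicate block and 1 within the first 4 column runs, an alternative added after the data were seen; they were 0 to 3 over refits without 1 rat, with 0 without air rat 4. Over the 6 weeks (5 as reported) they were 3 under median scaling, 2 with the column run as a fixed block, 2 with the replicate block, 1 within the first 4 runs and 3 without week 16 (the last also added afterwards), and 5 in all 72 refits without 1 rat. For air rats over the 6 weeks (3 as reported) they were 0 under median scaling, 1 with only the groups compared, 1 with the replicate block and 2 to 4 without 1 rat. For silica rats over the 6 weeks (8 as reported) they were 3 under median scaling. Between the air sets (2 as reported) they were 1 with the authors' deposited values, 0 under median scaling, 0 with only the groups compared, 0 with the replicate block and 1 to 3 without 1 rat. The cause of these differences was not tested, except that fewer arrays entered some fits. These were the fits of compared groups, with or without the replicate block, and of the first 4 runs. The other 160 member counts under alternatives stayed within 1.5 times those reported.

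The count of all genes called at week 16 (588) was 108 under median scaling, 62 with only the groups compared, 29 with the replicate block and 184 in the first 4 runs, and over the 6 weeks (1402) it was 738, 570 with the run as a block, 465 with the replicate block, 325 in the first 4 runs, 819 with the run as a random block and 689 without week 16. Median scaling gave week 16 values of 0.75 for Nqo1, 0.72 for Txnrd1 and -0.35 for Gpx3, with limma's adjusted p-values of 0.0682, 0.0769 and 0.560. All genes called over the 6 weeks numbered 88 under median scaling in air rats (3814 as reported), and in silica rats (5654) 2702 under median scaling and 3105 in the first 4 runs. Between the air sets (1439) they numbered 68 under median scaling, 626 with only the groups compared and 229 with the replicate block. Over all 12 alternatives at week 16, adjusted p ranged between 1.72e-05 and 0.243 for Nqo1, 0.00114 and 0.161 for Txnrd1, and 0.00557 and 0.560 for Gpx3, which passed in 9, 8 and 7 of them. In refits without 1 rat Nqo1 and Txnrd1 passed in 11 of 12 each and Gpx3 in 8.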
